A study of Mus musculus with 26 samples.

Results

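GSK126, an inhibitor of the histone methyltransferase EZH2, was compared with its solvent DMSO in mouse embryonic fibroblasts (MEFs) across all expressed genes. The comparison used 4 of the 10 RNA-seq libraries of the expression table, 1 library per condition, from MEFs labelled *Dnmt3a* WT and *Dnmt3a* KO, each with DMSO or with GSK126. Genes were taken in when they reached 1 FPKM, a fragment count divided by transcript length and library size, in at least 1 of these 4 libraries, which held for 14223 of 52454 gene symbols. All 4 libraries are labelled C57BL6, male and RNA of MEFs. Per the study's methods, the cells came from E14.5 embryos of crosses of mice heterozygous for the *Dnmt3a* KO allele tm1Enl, and GSK126 was given at 10 µM for 2 days. Neither the labels nor the methods say how many embryos each library represents. The MEFs belong to the study's work on the repression of Polycomb target genes by DNMT3A, and what the treatment was meant to answer in them is not stated beyond that.

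EZH2 is the catalytic subunit of Polycomb repressive complex PRC2, which methylates lysine 27 of histone H3 and keeps many developmental regulators silent in differentiated cells. GSK126 competes with the methyl donor S-adenosylmethionine at EZH2, and the mark is then lost mainly as chromatin is copied and cells divide. Primary MEFs are a mixture dominated by mesenchymal fibroblasts.

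Depth, recovered from the whole-read steps of low FPKM values, was between 17937157 and 25558613 mapped reads per library. At this depth, 1 FPKM on a transcript of 2000 bases stood for 32.4 to 46.1 reads. The level of *Dnmt3a*, which encodes the DNA methyltransferase named in the genotype, went against the labels, with 26.1 and 19.3 FPKM in the WT libraries with DMSO and GSK126 and 85.7 and 84.5 FPKM in those labelled *Dnmt3a* KO, so the latter are named by their label, in short the pair labelled KO. FPKM covers the whole gene, and the part of *Dnmt3a* deleted in these mice is not given in the sources used here, so this level is no direct check of the deletion. *Pax8*, whose values are given with the developmental factors, was higher in both libraries labelled *Dnmt3a* KO than in both WT libraries. Beside each gene, the DMSO value stands before the GSK126 value. All 14 fibroblast markers reached 1 FPKM, with *Vim* (vimentin) between 4939 and 5598 FPKM. Of the 14 macrophage and blood markers, 11 did so, among them *Lyz2* (lysozyme) at 638 to 885 FPKM and *Cd68* at 133 to 185 FPKM, so RNA of macrophage genes was part of every library. In such bulk RNA, fewer cells of a type and less RNA per cell cannot be told apart.

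The response to GSK126 was taken as the log2 ratio of FPKM + 1 in GSK126 to DMSO, once in the WT pair and once in the pair labelled *Dnmt3a* KO. The 2 pairs share no library. In the WT pair, 293 genes (2.06% of genes tested) were at least 2-fold higher with GSK126 and 214 (1.5%) were lower by this margin. In the pair labelled *Dnmt3a* KO, 274 genes (1.93%) were at least 2-fold higher and 444 (3.12%) at least 2-fold lower. Both pairs shared 60 of the higher genes (0.422%), which is 20.5% of the higher genes of the WT pair and 21.9% of those of the pair labelled *Dnmt3a* KO. They shared 41 of the lower genes (0.288%), 19.2% and 9.23% of the respective lists. Another 45 genes (0.316%) were at least 2-fold changed in opposite directions, 33 of them higher in WT. The median ratio over all genes tested was 0.00091 in WT and -0.04 in the pair labelled *Dnmt3a* KO. Across the 14223 genes the ratios of the pairs had a Pearson correlation of 0.14, and across the 12530 protein-coding genes with a transcript of at least 300 bases it was 0.22, given as a description because genes are not independent replicates.

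**Figure D1:**
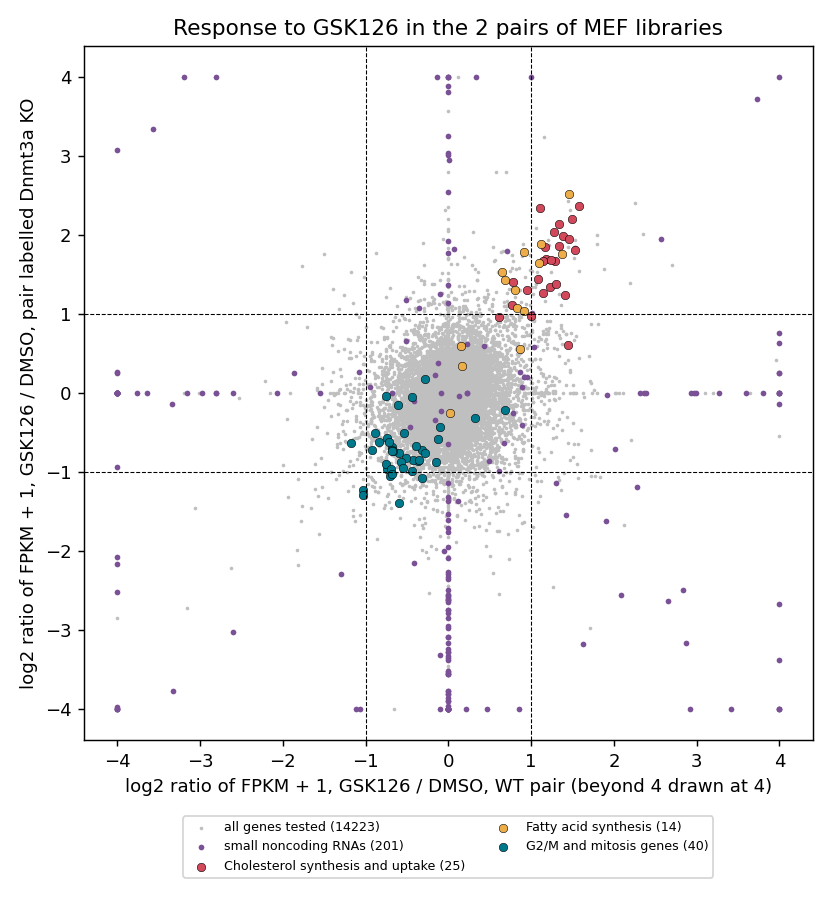
Log2 ratio of FPKM + 1 (GSK126 over DMSO) in the WT pair (x axis) against the pair labelled *Dnmt3a* KO (y axis), 1 point per gene, with dashed lines at 2-fold. The 25 cholesterol genes lie at the upper right, 19 of them beyond 2-fold in both pairs, whereas the 201 small noncoding RNAs are spread along the axes and into opposite corners.

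With 1 library per condition, neither pair has a replicate check of its own. The treatment effect over both pairs was therefore fitted with limma on log2(FPKM + 1) with genotype as a term, which leaves 1 residual degree of freedom and counts any difference between the pairs as error. Only 6 genes (0.0422%) passed an adjusted p of 0.05, 2 higher and 4 lower, and 1138 genes had an unadjusted p under 0.05 (8% of genes tested). All 6 are short RNAs with no annotated transcript of 300 bases or more, among them *Mir6357* and *Mir6516*, and each is listed at 0 in both libraries of 1 treatment. None of the protein-coding genes described here passed, and the adjusted p printed beside them comes from this fit. "Higher" and "lower" therefore describe these libraries.

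Genes for PRC2 itself differed by less than 2-fold in both pairs. With 2.06% of all genes called higher and 1.5% lower in WT, and 1.93% and 3.12% in the pair labelled *Dnmt3a* KO, a list this short holds few or no calls in any case. None of the 12 tested PRC2 subunit genes differed 2-fold between GSK126 and DMSO, and the median ratio was -0.09 in WT and -0.21 in the pair labelled *Dnmt3a* KO. *Ezh2* had 18.8 and 11.3 FPKM in WT and 17.3 and 18.7 FPKM in the pair labelled KO. This is lower with GSK126 in the WT pair and close to even in the other. *Ezh1*, the paralogue of *Ezh2*, was at 5.15 and 5.90 FPKM in WT and 6.56 and 6.51 FPKM in the pair labelled KO. For *Eed*, which encodes the subunit that binds methylated lysine 27, the values were 19.3 and 34.4 FPKM in WT and 39.2 and 23.5 FPKM in the pair labelled KO, in opposite directions. *Suz12*, a core scaffold subunit, was at 8.91 and 11.5 FPKM in WT and 15 and 16.1 FPKM in the pair labelled KO. *Phf19*, an accessory subunit, had 3.00 and 1.58 FPKM in WT and 2.58 and 1.36 FPKM in the pair labelled KO, the lowest mean ratio of the list (adjusted p = 0.627). Of the 20 PRC1 subunit genes none was called either. *Bmi1* was the one with the highest mean ratio among them, with 18.3 and 25.9 FPKM in WT and 17.7 and 23.6 FPKM in the pair labelled KO. Of the 7 tested genes for H3K27 demethylases and partners, *Nsd2*, which methylates lysine 36 of histone H3, had 20.4 and 13.3 FPKM in WT and 13.8 and 8.28 FPKM in the pair labelled KO, and *Ep300*, which acetylates lysine 27, had 19.2 and 10.6 FPKM in WT and 15.4 and 11.2 FPKM in the pair labelled KO.

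Developmental regulators are the typical targets of PRC2. The 4 libraries hold RNA, so loss of the histone mark was not measured. The filter at 1 FPKM also leaves out regulators under that level in all 4 libraries. Among the 33 tested *Hox* genes, which pattern the body axis, none differed 2-fold in either pair, 7 were higher in both pairs by any amount and 17 were lower in both. Among all genes tested, 25.5% were higher in both pairs and 29.4% lower in both. The median ratio of the *Hox* genes was -0.11 in WT and -0.12 in the pair labelled *Dnmt3a* KO. The latter was -0.23 with a pseudocount of 0.1 FPKM and -0.24 among genes of at least 5 FPKM. By the mean ratio over both pairs, those furthest from even were lower, whereas in WT alone the largest ratio was a higher one, 0.65 for *Hoxc12*. *Hoxa9* had 8.11 and 5.28 FPKM in WT and 6.72 and 3.51 FPKM in the pair labelled KO. *Hoxb3*, at a low level, had 1.44 and 0.809 FPKM in WT and 2.62 and 1.31 FPKM in the pair labelled KO. *Hoxa5* and *Hoxa6* were also among the 4 with the lowest mean ratio. Of 140 listed developmental transcription factors, 78 were expressed, with median ratios of 0.02 and -0.09. In the WT pair 2 of them were at least 2-fold higher and 1 lower, and in the pair labelled *Dnmt3a* KO 4 were higher and none lower. Of all genes, 2.06% were higher and 1.5% lower in WT, and 1.93% and 3.12% in the other pair. Only *Bach2*, a repressor known from lymphocytes, was at least 2-fold higher in both pairs, against 0.422% of all genes. It had 0.657 and 2.47 FPKM in WT and 0.518 and 2.97 FPKM in the pair labelled KO. By any amount, 19 of the 78 factors were higher in both pairs and 25 lower in both, against 25.5% and 29.4% of all genes. *Runx3* had 0.555 and 0.812 FPKM in WT and 0.414 and 2.22 FPKM in the pair labelled KO, and was called in the pair labelled *Dnmt3a* KO alone. *Pax8*, a paired-box factor of the thyroid and kidney, had 0.236 and 0.101 FPKM in WT and 4.24 and 6.92 FPKM in the pair labelled KO, so that its level was set apart by the genotype label in both treatments and its ratio stayed under 2-fold in each pair.

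Other genes that are often silent in fibroblasts were mostly under 1 FPKM, and too few were tested to set their calls apart from the shares of all genes. Of 32 germline and meiosis genes in the table, 3 reached 1 FPKM and none was called. *Rhox5*, an X-linked homeobox gene of the germline, had 0.901 and 1.08 FPKM in WT and 0.994 and 2.62 FPKM in the pair labelled KO. Of 56 clustered protocadherins 26 were tested, and *Pcdhgc4*, whose transcripts share 3' exons with its neighbours, had 1.99 and 4.59 FPKM in WT and 0.928 and 6.16 FPKM in the pair labelled KO. The 10 tested DNA methylation enzymes held no 2-fold change, with medians of -0.07 and -0.50. *Dnmt1*, the maintenance methyltransferase, had 23.5 and 18.5 FPKM in WT and 18.5 and 12.3 FPKM in the pair labelled KO, and its partner *Uhrf1* had 15.9 and 9.5 FPKM in WT and 11.5 and 7.6 FPKM in the pair labelled KO.

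Of the 50 gene lists, that of cholesterol synthesis had the highest median ratio in each pair. All 25 genes of cholesterol synthesis and uptake were higher with GSK126 in both pairs. Both GSK126 libraries lay above both DMSO libraries for each of the 25, against 15.2% of all genes tested. In WT 21 were at least 2-fold higher, in the pair labelled *Dnmt3a* KO 22, and in both pairs 19, against 2.06%, 1.93% and 0.422% of all genes. The median ratio was 1.25 in WT, with members from 0.62 to 1.58, and 1.67 in the pair labelled *Dnmt3a* KO, with members from 0.61 to 2.37. In limma all 25 had an unadjusted p under 0.05, against 8% of all genes, and their adjusted p lay between 0.134 and 0.402. Sterol synthesis is switched on as a unit when SREBP2, held in the endoplasmic reticulum by INSIG proteins while sterols are plentiful, is released and cut. The summed level of the 25 genes was 1082 FPKM with DMSO and 2553 FPKM with GSK126 in WT, and 977 and 3137 FPKM in the pair labelled *Dnmt3a* KO.

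The genes are given in the order of the pathway. *Acat2*, which makes acetoacetyl-CoA, was at 23.4 and 53.7 FPKM in WT and 17.2 and 64.8 FPKM in the pair labelled KO. *Hmgcs1*, the HMG-CoA synthase, was at 43.1 and 96.6 FPKM in WT and 52.0 and 127 FPKM in the pair labelled KO. Both were more than 2-fold higher in each pair.

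*Mvk* and *Pmvk* encode kinases that act on mevalonate in turn. *Mvk* had 51.8 and 89.9 FPKM in WT and 41.9 and 113 FPKM in the pair labelled KO. *Pmvk* had 29.5 and 50.8 FPKM in WT and 27.9 and 61.6 FPKM in the pair labelled KO. In WT both lay under 2-fold, and in the pair labelled *Dnmt3a* KO above it. *Mvd*, the mevalonate pyrophosphate decarboxylase, had the largest mean ratio of the list. Its gene spans 122433601 to 122443422 on chromosome 8 of mm10 (minus strand), and its levels were 33.7 and 102 FPKM in WT and 23.7 and 126 FPKM in the pair labelled KO (log2 ratio 1.58 and 2.37; limma log2 change 1.97 ± 0.22, SE; adjusted p = 0.134). *Idi1*, the isopentenyl diphosphate isomerase, had 18.8 and 55.1 FPKM in WT and 17.6 and 84.3 FPKM in the pair labelled KO (1.5 and 2.2 in log2). These 2 genes thus stood more than 4-fold above DMSO in the pair labelled *Dnmt3a* KO, and under 4-fold above it in WT.

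*Fdps*, which makes farnesyl diphosphate, was the most abundant of the pathway and had 147 and 374 FPKM in WT and 131 and 479 FPKM in the pair labelled KO. *Fdft1*, the squalene synthase, had 51.0 and 117 FPKM in WT and 43.7 and 143 FPKM in the pair labelled KO. *Sqle*, the squalene epoxidase and second control point of the pathway, had 44.3 and 109 FPKM in WT and 40.7 and 132 FPKM in the pair labelled KO. The steps from squalene onwards were also higher in both pairs. *Lss*, which closes the sterol rings, had 46.1 and 103 FPKM in WT and 38.3 and 124 FPKM in the pair labelled KO. *Cyp51*, the lanosterol demethylase, had 82.5 and 197 FPKM in WT and 82.2 and 267 FPKM in the pair labelled KO. *Msmo1*, a sterol methyl oxidase, had 122 and 321 FPKM in WT and 98.8 and 395 FPKM in the pair labelled KO. These enzymes were more than 2-fold higher in each pair. *Tm7sf2*, a sterol reductase, had 23.1 and 50.9 FPKM in WT and 14.8 and 79.6 FPKM in the pair labelled KO, with a ratio of 1.11 in WT against 2.35 in the pair labelled *Dnmt3a* KO. The sterol dehydrogenase gene *Nsdhl* had 24.6 and 60.9 FPKM in WT and 19.3 and 82.4 FPKM in the pair labelled KO. The ketoreductase gene *Hsd17b7* had 11.9 and 26.4 FPKM in WT and 13.6 and 38.7 FPKM in the pair labelled KO. The next enzymes shift and add ring double bonds. *Ebp* had 39.6 and 77.5 FPKM in WT and 35.1 and 88.4 FPKM in the pair labelled KO. *Sc5d* had 15.2 and 37.1 FPKM in WT and 19.5 and 51.0 FPKM in the pair labelled KO. *Dhcr7* encodes a reductase of the last steps. It had 38.7 and 108 FPKM in WT and 24.8 and 99.3 FPKM in the pair labelled KO. No sterol gene from *Acat2* to *Dhcr7* had a GSK126 library below either DMSO library.

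Genes that control or carry sterols were part of the same group. *Insig1*, the sterol-sensing retention factor, had 35.5 and 95.9 FPKM in WT and 48.8 and 117 FPKM in the pair labelled KO. It was more than 2-fold higher in both pairs. *Srebf2*, which encodes SREBP2, had 60.1 and 92.6 FPKM in WT and 46.8 and 92.3 FPKM in the pair labelled KO and was under 2-fold in each pair. *Stard4*, a sterol transfer protein, had 8.36 and 24.6 FPKM in WT and 14.4 and 22.6 FPKM in the pair labelled KO, with a ratio of 1.45 in WT and 0.61 in the pair labelled *Dnmt3a* KO. Of the 25 genes, 22 had the larger ratio in the pair labelled *Dnmt3a* KO, and *Stard4* and *Insig1* were among those with the larger one in WT. In the pair labelled *Dnmt3a* KO, 18 of the 25 started from a lower DMSO level than in WT and 21 reached a higher GSK126 level. This difference between the pairs was not tested.

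**Figure D2:**
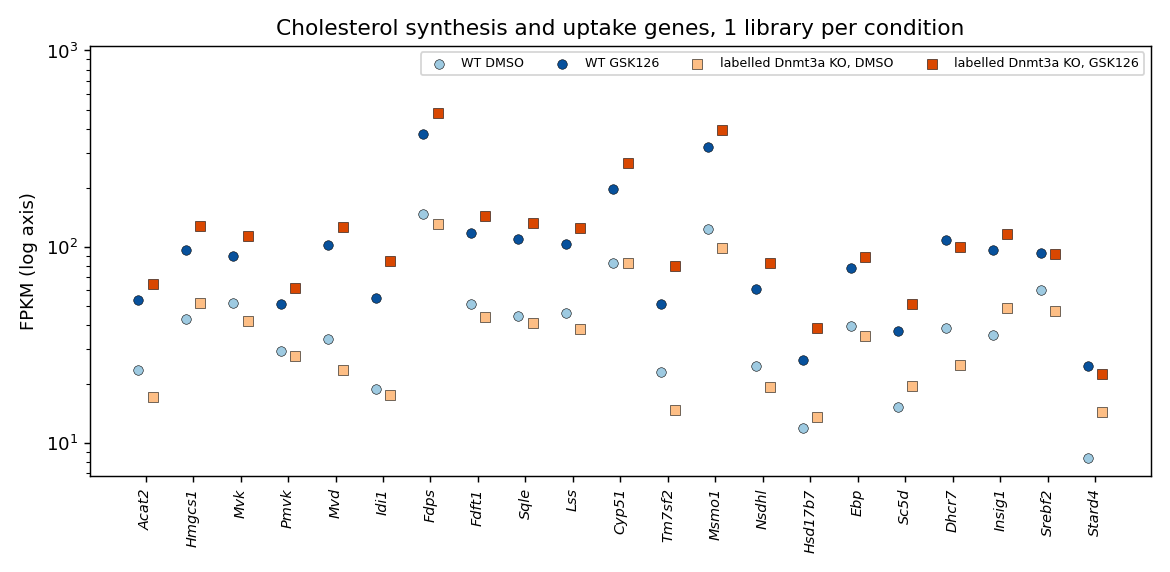
FPKM on a log axis for 21 of the 25 cholesterol synthesis and uptake genes, 1 point per library, circles for WT and squares for the libraries labelled *Dnmt3a* KO, with light colours for DMSO and dark colours for GSK126. In each gene both dark points lie above both light points, with the highest levels at *Fdps* (131 to 479 FPKM).

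The 250 bases before the RefSeq start of *Hmgcs1*, *Idi1* and *Mvd* (GRCm38.p6, the assembly of mm10) are printed because these genes moved together. Capitals mark matches, on either strand, to TCACNCCAC, a simplified SREBP site, or to CCAAT, the box bound by NF-Y, and the motifs were chosen after the expression values had been seen. The *Hmgcs1* window is chr13:119690101-119690350 on the plus strand, that of *Idi1* is chr13:8885356-8885605 on the plus strand, and that of *Mvd* is chr8:122443423-122443672 on the minus strand.
*Hmgcs1*: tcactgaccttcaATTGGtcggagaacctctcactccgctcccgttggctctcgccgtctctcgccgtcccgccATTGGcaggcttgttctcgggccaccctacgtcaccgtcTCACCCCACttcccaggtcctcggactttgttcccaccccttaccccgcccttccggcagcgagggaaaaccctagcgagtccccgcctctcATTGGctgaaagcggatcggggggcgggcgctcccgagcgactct
*Idi1*: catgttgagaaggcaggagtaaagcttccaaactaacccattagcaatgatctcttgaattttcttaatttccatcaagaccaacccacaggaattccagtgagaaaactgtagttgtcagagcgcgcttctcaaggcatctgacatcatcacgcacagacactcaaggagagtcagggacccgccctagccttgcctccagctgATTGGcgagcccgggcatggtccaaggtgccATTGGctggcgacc
*Mvd*: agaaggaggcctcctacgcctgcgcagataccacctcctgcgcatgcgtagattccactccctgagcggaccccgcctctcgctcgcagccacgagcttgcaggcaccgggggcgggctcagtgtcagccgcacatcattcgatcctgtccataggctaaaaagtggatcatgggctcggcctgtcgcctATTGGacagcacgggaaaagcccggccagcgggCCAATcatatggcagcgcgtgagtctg

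CCAAT stood in the window of 16 of the 17 cholesterol genes with a window in the RefSeq table (94.1%), against 37.5% of all 27025 symbols in that table and 40.4% of the 10123 genes tested that have a window. TCACNCCAC stood in 1 of the 17 (*Hmgcs1*, 137 bases before the start), against 1.22% of all symbols. A match is a description of the letters, and other forms of a site were not searched.

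Fatty acid synthesis, which is driven by the related factor SREBP1, went the same way. Of 14 tested genes 13 were higher in both pairs, 4 were at least 2-fold higher in WT and 10 in the pair labelled *Dnmt3a* KO, and 4 in both, with median ratios of 0.85 and 1.37. Of all genes, 25.5% were higher in both pairs by any amount, 2.06% and 1.93% at least 2-fold higher in the respective pairs and 0.422% in both. *Acss2*, the acetyl-CoA synthetase, had 9.51 and 26.2 FPKM in WT and 7.61 and 28.2 FPKM in the pair labelled KO (adjusted p = 0.134). *Fasn*, the fatty acid synthase, had 91.9 and 197 FPKM in WT and 72.9 and 230.5 FPKM in the pair labelled KO. *Scd1* and *Scd2* encode desaturases that add the first double bond to stearate. *Scd1* had 43.7 and 121 FPKM in WT and 27.6 and 164 FPKM in the pair labelled KO. *Scd2* had 216 and 469 FPKM in WT and 148 and 551 FPKM in the pair labelled KO. The ratio of *Scd1* in the pair labelled *Dnmt3a* KO, 2.52, was the largest of both lipid lists. *Srebf1*, which encodes SREBP1, had 65.6 and 121 FPKM in WT and 71.1 and 105 FPKM in the pair labelled KO, under 2-fold in each pair. *Gpam*, an acyltransferase of triglyceride synthesis, had 4.85 and 4.95 FPKM in WT and 5.39 and 4.37 FPKM in the pair labelled KO and was the one member not higher in both pairs. The cholesterol and fatty acid lists together made up 23 of the 60 shared higher genes (38.3%) and 57.5% of the 40 protein-coding ones.

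Genes of sterol export differed less. Of 8 LXR targets and efflux genes 3 were higher in both pairs by any amount and 1 was lower in both, against 25.5% and 29.4% of all genes, none was called in both, and the medians were 0.17 and 0.03, the latter -0.11 among genes of at least 5 FPKM. *Abcg1*, an exporter, had 3.67 and 4.89 FPKM in WT and 2.04 and 3.22 FPKM in the pair labelled KO. *Abca1*, the main cholesterol exporter, had 18.7 and 19.6 FPKM in WT and 14.3 and 12.2 FPKM in the pair labelled KO. *Apoe*, the lipoprotein component, had 1338 and 1309 FPKM in WT and 862 and 782 FPKM in the pair labelled KO. *Lpcat3*, a lysophospholipid acyltransferase, had 65.8 and 92.9 FPKM in WT and 59.7 and 126 FPKM in the pair labelled KO and was called in the pair labelled *Dnmt3a* KO. The 34 lysosome and TFEB target genes were higher in both pairs for 24 and lower in both for none, against 25.5% and 29.4% of all genes, with no 2-fold change and medians of 0.13 and 0.22. *Npc2*, which hands on cholesterol within the lysosome, had 206 and 270.1 FPKM in WT and 187 and 301 FPKM in the pair labelled KO. The protease gene *Ctsd* had 1982 and 2439.8 FPKM in WT and 1550.5 and 2479 FPKM in the pair labelled KO.

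Several of the largest shared differences lie outside these lists. *Cystm1*, for a small cysteine-rich membrane protein, had 5.13 and 20.3 FPKM in WT and 10.6 and 42.0 FPKM in the pair labelled KO and the lowest adjusted p of the named protein-coding genes (limma log2 change 1.84 ± 0.15, SE; adjusted p = 0.0940). *Fam124a* had 2.53 and 12.0 FPKM in WT and 2.55 and 9.55 FPKM in the pair labelled KO. *Cdsn*, which encodes the skin adhesion protein corneodesmosin, had 2.74 and 9.80 FPKM in WT and 3.50 and 16.3 FPKM in the pair labelled KO. In these 3 genes no GSK126 library overlapped with DMSO. *Pdzk1ip1*, for a membrane protein that binds the scaffold PDZK1, had 1.19 and 5.05 FPKM in WT and 1.08 and 9.37 FPKM in the pair labelled KO. *Crygn*, a crystallin gene, was listed at 0 in WT with DMSO and at 2.46 FPKM (27 reads on its longest transcript) with GSK126, and had 0.931 and 6.76 FPKM in the pair labelled *Dnmt3a* KO. *Aldoc*, a glycolytic aldolase isozyme, had 5.91 and 13.4 FPKM in WT and 5.31 and 25.9 FPKM in the pair labelled KO. It was the only called member of the 24 hypoxia and glycolysis genes. Of all genes, 2.06% were at least 2-fold higher in WT, 1.93% in the other pair and 0.422% in both. The remaining gene of the 15 largest, *AL928567.1*, is annotated as a microRNA of 138 bases, shorter than a typical sequenced fragment, where few reads make a high FPKM (13.4 and 40.8 FPKM in WT and 9.36 and 36.2 FPKM in the pair labelled KO).

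Fewer protein-coding genes were lower in both pairs, 15 of the 41 shared lower genes. *Sh3bgr*, for a small SH3-binding protein, had 7.97 and 1.84 FPKM in WT and 7.89 and 2.24 FPKM in the pair labelled KO (adjusted p = 0.160). *Angptl4*, a secreted inhibitor of lipoprotein lipase (minus strand of chromosome 17, 33773750 to 33781575), had 8.94 and 1.59 FPKM in WT and 4.89 and 1.37 FPKM in the pair labelled KO. Of the 17 adipogenesis genes it was the only one called in both pairs, against 0.288% of all genes lower in both. In WT 2 of the 17 were at least 2-fold lower (1.5% of all genes) and in the other pair 1 (3.12%). *Gpat3*, an acyltransferase of triglyceride synthesis, had 3.33 and 0.50 FPKM in WT and 3.38 and 0.918 FPKM in the pair labelled KO. Both *Angptl4* and *Gpat3* act in the handling of triglycerides. *Nnat*, the imprinted gene neuronatin, had 18.5 and 7.46 FPKM in WT and 9.68 and 3.54 FPKM in the pair labelled KO. It was the only imprinted gene of 34 called in both pairs, against 0.288% of all genes lower in both. Of the 34, 1 was at least 2-fold lower in WT and 5 in the pair labelled *Dnmt3a* KO, against 1.5% and 3.12% of all genes.

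*Cacna1a*, the pore subunit of P/Q-type calcium channels, had 17.6 and 7.39 FPKM in WT and 25.8 and 8.62 FPKM in the pair labelled KO. *Mycbp*, for a MYC-binding protein, had 37.5 and 16.3 FPKM in WT and 38.7 and 12.4 FPKM in the pair labelled KO. *Il15*, a cytokine, had 8.41 and 3.31 FPKM in WT and 13.4 and 3.69 FPKM in the pair labelled KO. These 3 were more than 2-fold lower in each pair. *Wnk4*, a kinase that controls salt transport, had 9.01 and 2.90 FPKM in WT and 7.43 and 2.96 FPKM in the pair labelled KO. *Plekhg4*, a guanine nucleotide exchange factor, had 2.01 and 0.353 FPKM in WT and 4.10 and 1.26 FPKM in the pair labelled KO. *Ism1*, for the secreted protein isthmin, had 4.41 and 1.64 FPKM in WT and 6.95 and 2.75 FPKM in the pair labelled KO. All 6 had both GSK126 libraries below both DMSO libraries. The other 5 of the 15 largest are *Ccnb1*, described with the cell cycle, *AC122327.4* and *AC159290.1*, annotated as pseudogenes, *AC125167.1*, annotated as a microRNA, and *AC134869.3*, a protein-coding gene with a transcript of 343 bases and about 19 and 7 reads with DMSO and about 0 with GSK126. *AC125167.1* (45311673 to 45311813 on chromosome 1) lies within *Col3a1* (45311538 to 45349706), on the same strand. Reads of *AC125167.1* and *Col3a1* may therefore not be told apart.

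Genes of mitosis were lower in both pairs. Of 40 tested G2/M genes, 37 were lower in both pairs by any amount, against 29.4% of all genes, and for the same number both GSK126 libraries lay under both DMSO libraries, against 17.9% of all genes. Most of the changes were smaller than 2-fold. In WT 3 were at least 2-fold lower, in the pair labelled *Dnmt3a* KO 6, and in both pairs 2, against 1.5%, 3.12% and 0.288% of all genes. The median ratios were -0.60 and -0.73. In limma 28 of the 40 had an unadjusted p under 0.05, against 8% of all genes, and the lowest adjusted p was 0.218. *Ccnb1*, which encodes the mitotic cyclin B1, had 12.6 and 5.67 FPKM in WT and 11.9 and 4.50 FPKM in the pair labelled KO. *Ect2*, the exchange factor that directs the contractile ring, had 8.62 and 3.72 FPKM in WT and 11.7 and 4.21 FPKM in the pair labelled KO. These are the 2 genes called in both pairs. *Kif23*, a kinesin of the midbody, had 40.0 and 17.2 FPKM in WT and 29.5 and 18.6 FPKM in the pair labelled KO. *Cenpa*, the centromeric histone, had 32.6 and 21.3 FPKM in WT and 48.0 and 17.7 FPKM in the pair labelled KO, so that *Kif23* was called in WT and *Cenpa* in the pair labelled *Dnmt3a* KO.

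Genes read as general proliferation markers were lower by less than 2-fold. *Mki67* had 17.3 and 10.4 FPKM in WT and 12.7 and 7.54 FPKM in the pair labelled KO. *Top2a*, a topoisomerase, had 41.2 and 21.2 FPKM in WT and 38.1 and 22.7 FPKM in the pair labelled KO. *Cdk1*, the kinase that cyclin B activates, had 86.8 and 51.4 FPKM in WT and 71.0 and 47.7 FPKM in the pair labelled KO. Not every member followed. *Mybl2*, a transcription factor of the late cell cycle, had 2.74 and 5.0 FPKM in WT and 2.69 and 2.19 FPKM in the pair labelled KO, higher in WT. *Bub1*, a spindle checkpoint kinase, had 4.24 and 5.54 FPKM in WT and 4.18 and 3.17 FPKM in the pair labelled KO. *Ttk*, another, had 2.02 and 1.49 FPKM in WT and 2.35 and 2.80 FPKM in the pair labelled KO. These 3 differed in direction between the pairs.

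**Figure D3:**
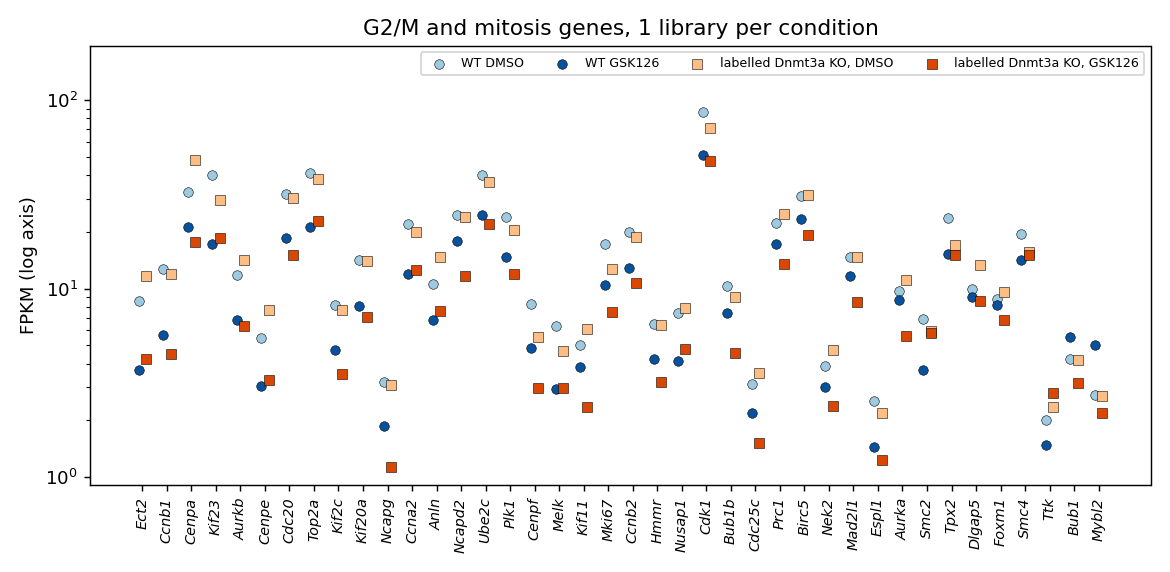
FPKM on a log axis for the 40 G2/M and mitosis genes, ordered from the lowest mean ratio, with symbols as in the plot of cholesterol genes. Dark points (GSK126) lie under both light points (DMSO) in 37 genes, and *Ttk*, *Bub1* and *Mybl2* at the right end do not follow.

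The 250 bases before the RefSeq starts of *Ccnb1* and *Ect2* are printed to show the boxes that promoters of mitotic genes are known for, with capitals at matches on either strand to CCAAT and to TTTGAA, the cell cycle homology region. The *Ccnb1* window is chr13:100786487-100786736 and the first *Ect2* window is chr3:27153879-27154128, both on the minus strand of GRCm38.p6.
*Ccnb1*: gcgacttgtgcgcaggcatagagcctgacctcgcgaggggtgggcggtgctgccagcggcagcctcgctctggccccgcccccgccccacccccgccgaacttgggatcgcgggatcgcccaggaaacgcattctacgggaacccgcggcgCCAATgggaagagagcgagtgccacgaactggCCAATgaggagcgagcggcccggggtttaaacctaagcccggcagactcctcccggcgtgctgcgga
*Ect2*: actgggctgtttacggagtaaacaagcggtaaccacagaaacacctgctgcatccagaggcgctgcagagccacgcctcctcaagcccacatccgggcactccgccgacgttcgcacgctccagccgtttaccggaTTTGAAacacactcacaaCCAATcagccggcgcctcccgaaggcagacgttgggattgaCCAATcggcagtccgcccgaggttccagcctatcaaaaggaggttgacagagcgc

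CCAAT stood in the window of 25 of 32 G2/M genes with a window (78.1%). Its share was 37.5% of all symbols, 40.4% of genes tested and 63.6% of S-phase genes with a window. TTTGAA stood in 14 of the 32 (43.8%, against 18.3% of all symbols and 12.6% of genes tested). Of these G2/M genes 13 held both in 1 window, a share that was not computed for all genes. *Ccnb1* has 2 CCAAT boxes, 99 and 67 bases before its start, and no TTTGAA in the window. Other forms of the cell cycle homology region were not searched.

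Genes of DNA replication went the same way by a smaller amount. Of 40 S-phase genes 31 were lower in both pairs, against 29.4% of all genes, and none was called (1.5% of all genes were at least 2-fold lower in WT and 3.12% in the other pair), with medians of -0.32 and -0.37. *Mcm6*, a subunit of the replicative helicase, had 41.7 and 24.6 FPKM in WT and 27 and 15.7 FPKM in the pair labelled KO (adjusted p = 0.292), and *Mcm5*, another, had 19.8 and 13.2 FPKM in WT and 15.8 and 8.73 FPKM in the pair labelled KO. *Cdc45*, which completes the active helicase, had 4.56 and 3.29 FPKM in WT and 6.45 and 3.05 FPKM in the pair labelled KO. The cell cycle inhibitors were mixed. *Cdkn2b* (p15) had 61.2 and 94.5 FPKM in WT and 62.5 and 113 FPKM in the pair labelled KO, and *Cdkn2a*, the locus of p16 and ARF and a known PRC2 target, had 124 and 174 FPKM in WT and 99.5 and 192 FPKM in the pair labelled KO. *Cdkn1a* (p21) had 426 and 596 FPKM in WT and 484 and 718 FPKM in the pair labelled KO, whereas *Cdkn1b* (p27) had 11.7 and 8.78 FPKM in WT and 15.5 and 7.99 FPKM in the pair labelled KO. None of the 7 inhibitor genes reached 2-fold in either pair. Of 24 p53 targets 20 were higher in both pairs, against 25.5% of all genes, none of them 2-fold in both (0.422% of all genes), with medians of 0.28 and 0.22. *Perp*, a p53 target in apoptosis and adhesion, had 19.8 and 33.5 FPKM in WT and 25.1 and 63.9 FPKM in the pair labelled KO, and *Pmaip1* (Noxa) had 9.71 and 21.4 FPKM in WT and 24.1 and 25.5 FPKM in the pair labelled KO.

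Genes of the integrated stress response were higher in both pairs. Of 31 ATF4 target genes 26 were higher in both and 1 was lower in both, against 25.5% and 29.4% of all genes, with medians of 0.38 and 0.36. In WT 4 were at least 2-fold higher, in the pair labelled *Dnmt3a* KO 2, and in both pairs 1, against 2.06%, 1.93% and 0.422% of all genes. The 1 called in both was *Slc7a3*, a transporter of cationic amino acids. It had 2.29 and 6.66 FPKM in WT and 1.93 and 9.77 FPKM in the pair labelled KO. *Trib3*, a pseudokinase induced by ATF4, had 11.8 and 24.8 FPKM in WT and 14.4 and 28.4 FPKM in the pair labelled KO. *Chac1*, which degrades glutathione, had 13.5 and 26.4 FPKM in WT and 23.9 and 43.3 FPKM in the pair labelled KO. *Stc2*, a secreted glycoprotein, had 1.29 and 4.16 FPKM in WT and 0.999 and 2.17 FPKM in the pair labelled KO. The 13 members with an unadjusted limma p under 0.05 were all higher, and the adjusted p of *Trib3* was 0.218. Of all genes tested, 8% had an unadjusted limma p under 0.05 in either direction. The window before *Chac1* (chr2:119350992-119351241, plus strand, GRCm38.p6) holds 1 match to TGATGNAA, a simplified ATF4 site, read on the reverse strand, and capitals mark this motif alone. It is shown as 1 of 10 such windows.
*Chac1*: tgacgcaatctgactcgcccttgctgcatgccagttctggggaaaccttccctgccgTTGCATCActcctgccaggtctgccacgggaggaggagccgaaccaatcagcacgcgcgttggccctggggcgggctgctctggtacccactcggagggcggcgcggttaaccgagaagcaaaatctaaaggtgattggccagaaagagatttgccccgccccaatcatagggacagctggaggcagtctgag

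TGATGNAA stood in 10 of 27 windows of ATF4 genes (37%), against 3.91% of all symbols and 2.41% of genes tested. The unfolded protein response genes of the endoplasmic reticulum were not higher. Of 20, 4 were higher and 9 lower in both pairs, against 25.5% and 29.4% of all genes, with medians of -0.03 and -0.14. The chaperone gene *Hspa5* had 598 and 584 FPKM in WT and 664 and 483 FPKM in the pair labelled KO, and *Hsp90b1* had 533 and 477 FPKM in WT and 588 and 426 FPKM in the pair labelled KO. Oxidative stress genes under NRF2 had medians of -0.36 in WT and 0.07 in the pair labelled *Dnmt3a* KO. *Hmox1*, the heme oxygenase, had 223 and 151 FPKM in WT and 261 and 143 FPKM in the pair labelled KO, lower in both, while *Gclm*, for glutathione synthesis, had 77.9 and 39.8 FPKM in WT and 66.4 and 59.6 FPKM in the pair labelled KO. Of 13 heat shock genes, *Hspa1b* alone was called, in the pair labelled *Dnmt3a* KO, with 12.9 and 11.5 FPKM in WT and 14.1 and 6.03 FPKM in the pair labelled KO. The 7 tested targets of the aryl hydrocarbon receptor held no 2-fold change. Of all genes, 2.06% were at least 2-fold higher and 1.5% lower in WT, and 1.93% and 3.12% in the other pair. Lists as short as these 13 and 7 genes hold few or no calls in any case.

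Interferon-stimulated genes were moderately higher. Of 33 tested 22 were higher in both pairs and 3 lower in both, against 25.5% and 29.4% of all genes. None was 2-fold in both (0.422% of all genes were), with medians of 0.33 and 0.27. *Bst2*, which encodes tetherin, had 82.1 and 163 FPKM in WT and 58.6 and 128 FPKM in the pair labelled KO (adjusted p = 0.160). *Ifit1*, which binds foreign RNA, had 6.68 and 13.1 FPKM in WT and 3.08 and 8.12 FPKM in the pair labelled KO, and *Isg15* had 26.8 and 48.9 FPKM in WT and 10.1 and 19.9 FPKM in the pair labelled KO. *Usp18*, which removes ISG15, had 2.28 and 6.59 FPKM in WT and 1.71 and 3.55 FPKM in the pair labelled KO. Of 15 antigen presentation genes 9 were higher in both pairs, against 25.5% of all genes, with medians of 0.25 and 0.33. *H2-K1*, a class I heavy chain, had 55.4 and 113 FPKM in WT and 63.2 and 110.5 FPKM in the pair labelled KO, and *B2m*, its light chain, had 607 and 788 FPKM in WT and 619 and 857 FPKM in the pair labelled KO. Reads of class I genes can map to several copies, so the value of one gene among them is uncertain. *Psmb9*, an immunoproteasome subunit, had 4.84 and 12.2 FPKM in WT and 5.64 and 6.34 FPKM in the pair labelled KO, with a change in WT alone. Chemokine and cytokine genes did not move as a group (medians 0.33 and -0.15). *Icam1*, an adhesion receptor, had 17.2 and 27.6 FPKM in WT and 22.3 and 37.9 FPKM in the pair labelled KO, and *Ccl5* had 1.85 and 3.43 FPKM in WT and 0.118 and 2.86 FPKM in the pair labelled KO.

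By gene counts and medians, collagens and matrix glycoproteins leaned lower, more so by the medians in the pair labelled *Dnmt3a* KO. Of 26 collagen genes 16 were lower in both pairs and 2 higher in both, against 29.4% and 25.5% of all genes, with medians of -0.20 and -0.43. Both GSK126 libraries lay under both DMSO libraries for 10 of them, against 17.9% of all genes. *Col3a1* had 3833 and 2398 FPKM in WT and 2754 and 1193 FPKM in the pair labelled KO, and was called in the pair labelled *Dnmt3a* KO only. *Col14a1* had 20.1 and 12.1 FPKM in WT and 34.8 and 18.4 FPKM in the pair labelled KO, and *Col1a1* had 4281 and 3060.3 FPKM in WT and 3475 and 2504 FPKM in the pair labelled KO. Among 34 matrix glycoproteins 21 were lower in both pairs, against the same 29.4%, with medians of -0.09 and -0.36. The summed level of these 34 was 11329 and 12075 FPKM in WT, higher with GSK126, and 13090 and 12056 FPKM in the pair labelled KO. That of the 26 collagen genes was 14629 and 11047 FPKM in WT and 12460 and 8366 FPKM in the pair labelled KO. *Vcan* (versican) had 181 and 117 FPKM in WT and 133 and 72.2 FPKM in the pair labelled KO, and *Postn* (periostin) had 322 and 293 FPKM in WT and 436 and 176 FPKM in the pair labelled KO. *Pdgfra*, the receptor that marks mesenchymal fibroblasts, had 51.4 and 31.2 FPKM in WT and 36.0 and 21.1 FPKM in the pair labelled KO. *Timp3*, an inhibitor of metalloproteinases, went the other way with 134 and 221 FPKM in WT and 229 and 326 FPKM in the pair labelled KO. The 25 myofibroblast and smooth muscle genes had medians of 0.10 in WT and -0.32 in the pair labelled *Dnmt3a* KO. The 14 fibroblast markers, 3 of which are also in the collagen list and 3 in the matrix glycoprotein list, had medians of -0.09 and -0.28, 9 were lower in both pairs (29.4% of all genes), and their summed level was 21569 and 16938 FPKM in WT and 17591 and 14019 FPKM in the pair labelled KO. The summed level of the 8 epithelial and mesothelial markers was 76.5 and 88.9 FPKM in WT and 139 and 319 FPKM in the pair labelled KO. That of the 11 tested macrophage and blood markers was 1139 and 1179 FPKM in the WT pair and 1010 and 861 FPKM in the other (DMSO first in both). The part of these cell types in the matrix values was not tested.

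Signalling lists gave no gene called in both pairs. Of all genes, 0.422% were higher and 0.288% lower in both, so such lists hold few or no shared calls in any case. Among 32 tested Wnt pathway genes, *Wnt16*, a ligand, was higher with log2 ratios of 1.30 and 0.78. *Wnt5b*, another, had 4.88 and 1.33 FPKM in WT and 2.67 and 1.56 FPKM in the pair labelled KO. *Rnf43*, a ligase that removes Wnt receptors, had 1.19 and 2.86 FPKM in WT and 0.468 and 1.64 FPKM in the pair labelled KO. Among 31 genes of the BMP and TGF-beta pathway, *Grem1*, a secreted BMP antagonist, had 28.1 and 56.5 FPKM in WT and 47.0 and 78.7 FPKM in the pair labelled KO, and *Id3*, a BMP target, had 251 and 244 FPKM in WT and 416 and 226 FPKM in the pair labelled KO. *Fgf21*, a hormone of the fasting response, had 1.04 and 1.17 FPKM in WT and 1.25 and 4.16 FPKM in the pair labelled KO, and was called in the pair labelled *Dnmt3a* KO alone. The 14 genes of the IGF axis and the 15 of Hedgehog and Notch signalling held no 2-fold change. Of all genes, 2.06% were higher and 1.5% lower in WT, and 1.93% and 3.12% in the other pair. Housekeeping genes (medians -0.04 and 0.11), 41 oxidative phosphorylation genes (-0.03 and 0.08) and 31 proteasome genes (-0.06 and 0.03) stayed near even, with no call among them.

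**Figure D4:**
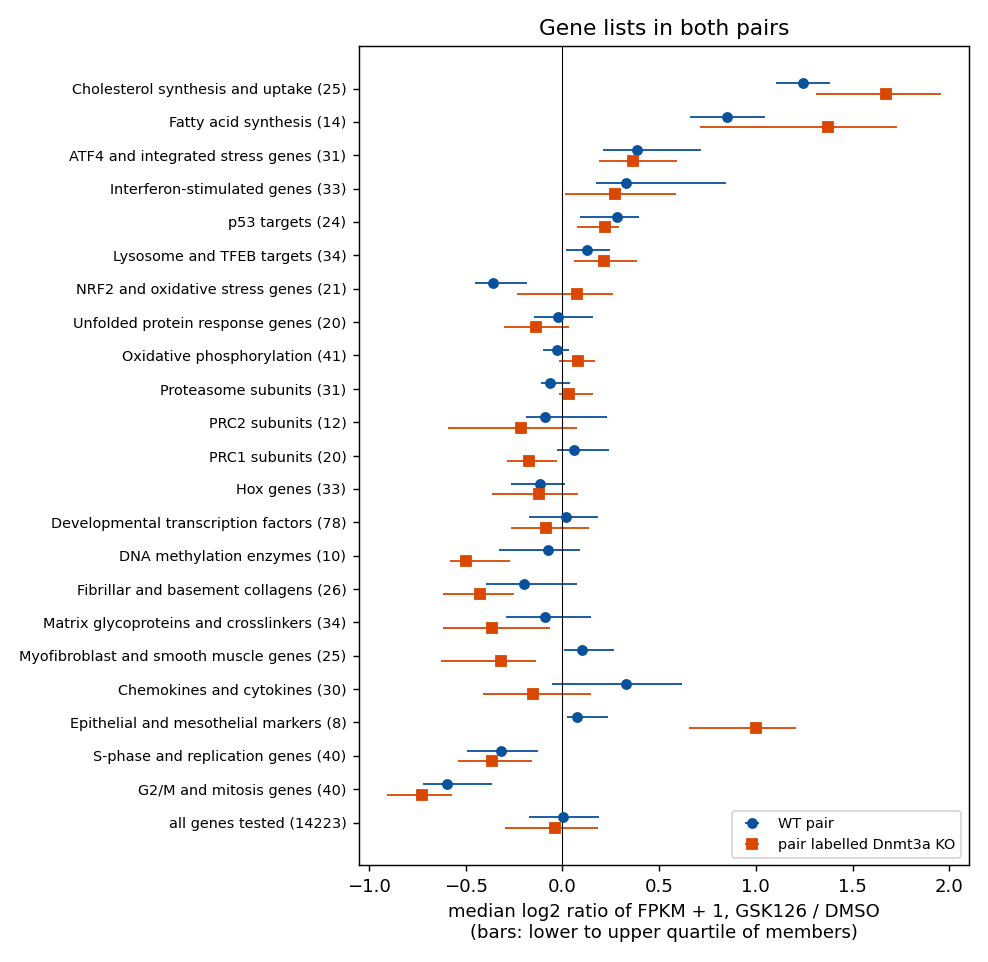
Median log2 ratio of FPKM + 1 (GSK126 over DMSO) for 22 gene lists and all genes tested, circles for the WT pair and squares for the pair labelled *Dnmt3a* KO, with bars from the lower to the upper quartile of the members and the number of genes in parentheses. The 2 lipid synthesis lists stand above 0.8 in both pairs, the G2/M list is at -0.60 and -0.73, and the *Hox* and PRC2 lists are at -0.11 and -0.12 and at -0.09 and -0.21, respectively.

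Other genes changed in 1 pair or in opposite directions. Since each value rests on 1 library per condition, these differences between the pairs were not tested. Epithelial and mesothelial markers were higher with GSK126 in the pair labelled *Dnmt3a* KO, with a median ratio of 1.0 over 8 tested genes, against 0.08 in WT. *Msln* (mesothelin) had 29.5 and 38.2 FPKM in WT and 42.3 and 124 FPKM in the pair labelled KO. *Upk3b* (uroplakin) had 12.9 and 13.3 FPKM in WT and 40.5 and 88.0 FPKM in the pair labelled KO. *Krt14* and *Krt19* encode keratins. *Krt14* had 0.905 and 1.18 FPKM in WT and 3.94 and 15.3 FPKM in the pair labelled KO. *Krt19* had 22.6 and 23.3 FPKM in WT and 19.8 and 42.0 FPKM in the pair labelled KO. In these 4 genes the GSK126 library labelled *Dnmt3a* KO was the highest. *Wt1*, a mesothelial transcription factor among the 8, had 1.03 and 0.982 FPKM in WT and 5.42 and 4.56 FPKM in the pair labelled KO. The metallothionein gene *Mt1* had 477 and 546 FPKM in WT and 346 and 599.7 FPKM in the pair labelled KO. Its neighbour *Mt2* had 220.3 and 262 FPKM in WT and 148 and 297 FPKM in the pair labelled KO. Neither reached 2-fold.

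Among genes under 1.1-fold in WT, and apart from small RNAs and genes with a Gm number, the largest ratio in the pair labelled *Dnmt3a* KO was at *Ryr3*, a calcium release channel of the endoplasmic reticulum (minus strand of chromosome 2, 112631355 to 113217096). It had 0.0735 and 0.159 FPKM in WT and 0.0946 and 17.0 FPKM in the pair labelled KO, which on its longest transcript stands for 20, 47, 37 and 5479 reads in that order. *Hdac11*, a histone deacetylase, had 5.05 and 5.17 FPKM in WT and 3.66 and 13.5 FPKM in the pair labelled KO. In these 2 genes the GSK126 library labelled *Dnmt3a* KO stood alone. Other genes differed in WT alone. *Ift80*, of intraflagellar transport, had 6.17 and 22.6 FPKM in WT and 11.4 and 12.5 FPKM in the pair labelled KO, highest in WT with GSK126. *Tnnt2*, a troponin, had 1.49 and 6.76 FPKM in WT and 6.42 and 6.18 FPKM in the pair labelled KO. *Mylpf*, a myosin light chain, had 2.96 and 9.67 FPKM in WT and 7.23 and 5.69 FPKM in the pair labelled KO. Both muscle genes were lowest in WT with DMSO. *Gpr21*, a receptor gene, had 4.87 and 0.0151 FPKM in WT and 0.0685 and 0.0276 FPKM in the pair labelled KO. *Sh2b2*, an adaptor of insulin signalling, had 4.98 and 0.994 FPKM in WT and 0.930 and 0.989 FPKM in the pair labelled KO. These were high in WT with DMSO only.

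Some noncoding RNAs were highest in the DMSO library labelled *Dnmt3a* KO. *Malat1*, a nuclear long noncoding RNA, had 7.53 and 17.6 FPKM in WT and 56.4 and 25.6 FPKM in the pair labelled KO. *Neat1*, the scaffold of paraspeckles, had 7.43 and 11.8 FPKM in WT and 24.5 and 8.36 FPKM in the pair labelled KO. These 2 genes, and *Rian*, were chosen after their values were seen. *Meg3*, *Rian* and *Mirg* are maternally expressed RNAs of 1 imprinted cluster. *Meg3* had 25.6 and 36.9 FPKM in WT and 126 and 29.4 FPKM in the pair labelled KO. *Rian* had 119.8 and 143 FPKM in WT and 267 and 128 FPKM in the pair labelled KO. *Mirg* had 7.02 and 5.67 FPKM in WT and 21.5 and 9.56 FPKM in the pair labelled KO. All 5 were highest in that library. Of 1082 long noncoding RNAs 37 were at least 2-fold higher and 93 lower in the pair labelled *Dnmt3a* KO, against 45 and 33 in WT. Of 201 small noncoding RNAs these numbers were 31 and 97, against 42 and 44. Of all genes tested, 1.93% were higher and 3.12% lower in the pair labelled *Dnmt3a* KO. That library held the highest value for 42.8% of small noncoding RNAs, 33.7% of long noncoding RNAs and 31.6% of protein-coding genes, so on this measure long noncoding RNAs were close to protein-coding genes. Its depth was also the highest of the 4.

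Many of the opposite changes were in short transcripts. Of the 45 genes changed in opposite directions 23 have no transcript of 300 bases, whereas such genes are 2.5% of all genes tested, and 30 are listed at 0 in at least 1 of the 4 libraries. Among the 101 genes that changed the same way in both pairs, 33 have no transcript of 300 bases. Protein-coding genes with longer transcripts gave 12 opposite changes. *Arntl2*, a clock factor, had 4.06 and 1.02 FPKM in WT and 3.01 and 7.38 FPKM in the pair labelled KO, or 204, 55, 216 and 437 reads on its longest transcript. *Msh5*, of meiotic recombination, had 2.51 and 0.583 FPKM in WT and 0.494 and 2.31 FPKM in the pair labelled KO, or 121, 30, 34 and 131 reads.

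**Figure D5:**
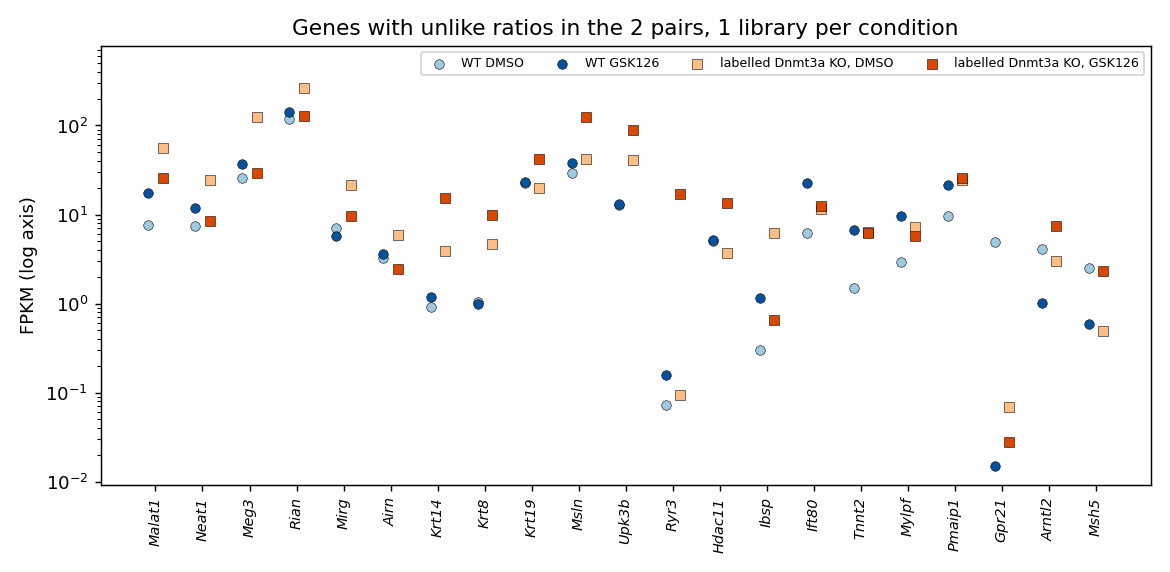
FPKM on a log axis for 21 genes with unlike ratios in the 2 pairs, symbols as in the plot of cholesterol genes, chosen after their values were seen to show these groups. *Malat1*, *Neat1* and *Meg3* are highest in the DMSO library labelled *Dnmt3a* KO, *Ryr3* is high in the GSK126 library of that label alone (17.0 FPKM), and *Arntl2* and *Msh5* move in opposite directions.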

How the data were processed

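RNA-seq values were read from the expression table deposited by the authors, in FPKM per gene, estimated with Cufflinks from 75-base single reads aligned with TopHat2 and Bowtie2 to mm10 with GENCODE M15 and kept at a mapping quality of at least 20. Whether Cufflinks used strand is not given in the sources used here, so reads of overlapping genes on opposite strands may not be told apart. Of the 52609 rows, 155 repeated a symbol and were summed. Low FPKM values were whole multiples of 1 read for 97.1% to 97.7% of the values checked, within 0.1 of a whole read (20% would fall there by the tolerance alone), which gave the depth of each library. Since the recovered reads do not cover all genes, no count model was run.

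Log2 ratios of FPKM + 1 were computed for genes at 1 FPKM or more in at least 1 of the 4 libraries, and 2-fold counted as changed. With low values this scale understates a change. limma (3.58.1, R 4.3.3) was fitted to log2(FPKM + 1) with genotype and treatment as terms and a mean-variance trend, with Benjamini-Hochberg adjustment over all genes tested, and was tested on simulated data. Its p-values measure only the spread between these 4 libraries.

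The comparison, the 50 gene lists and the rules were chosen with earlier results of these data known. Genes named are the 15 largest shared changes each way, ranked by the smaller of both pairs' ratios and leaving out predicted genes and small RNAs by symbol, the 5 largest discordant changes of each kind, list members changed in both pairs, and up to 4 leading members per list. Further members of the lipid and mitosis lists, *Malat1*, *Neat1*, *Rian*, *Wt1*, and the promoter motifs were chosen after values were seen. Promoter windows are from RefSeq (GRCm38.p6). Some items are not reported here.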

Additional observations from a re-analysis of the deposited data

Results flagged for a closer look

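Several genes and gene lists had opposite changes in the WT pair and in the pair labelled *Dnmt3a* KO. Each value below is the log2 ratio of FPKM + 1 (GSK126 over DMSO) in WT minus that in the pair labelled *Dnmt3a* KO, and with 1 library per condition none of these differences was tested. Among genes at least 2-fold changed in opposite directions, the difference was 3.80 for *Eif4ebp3*, which encodes a repressor of translation initiation and was listed at 0 in WT with DMSO and in the GSK126 library labelled *Dnmt3a* KO. It was -2.39 for *Arntl2* and -2.30 for *Msh5*. The other 5 are known by clone names, with differences of 9.14 for *AL954388.1*, 8.63 for *AC124457.1*, 7.41 for *AL593843.1*, 4.81 for *AC084391.1* and -2.49 for *AC132304.1*. All of these but *AC132304.1* are listed at 0 in at least 1 library, where the size of the difference depends on the pseudocount.

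Among gene lists whose median log2 ratios in the 2 pairs had opposite signs and were each at least 0.1 from even, the difference of medians was 0.48 for chemokines and cytokines, 0.42 for myofibroblast and smooth muscle genes, -0.26 for the Ink4-Arf and Cip/Kip inhibitors and -0.80 for the endothelial markers. The endothelial value rests on 3 tested genes whose summed level was at most 6.99 FPKM in any library.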

How the results depend on the processing

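With 1 library per condition, leaving out a library was not possible, and depth limits genes near 1 FPKM. The labels give no replicate numbers, and the genotype term of the limma fit is what pairs each GSK126 library with its DMSO library. The 101 genes changed the same way in both pairs became 286 with a pseudocount of 0.1 FPKM, 416 at 1.5-fold and 55 among protein-coding genes with a transcript of at least 300 bases, an alternative chosen after seeing the data. Of them 59.4% were higher, against 72.7% of the 55. The 45 opposite changes became 156, 170 and 12 in the same order, and 22 at a minimum of 5 FPKM. The 6 limma calls became 10 with the pseudocount of 0.1, 9 with centred libraries, 2 with no genotype term (libraries not paired), 0 with no trend (1055 genes at an unadjusted p under 0.05) and 0 among the protein-coding genes (1199 at an unadjusted p under 0.05). The correlation of 0.14 between the pairs became 0.17 as a Spearman correlation, 0.098 with the pseudocount of 0.1, 0.15 at 5 FPKM and 0.22 among the protein-coding genes. The median *Hox* ratio in the pair labelled *Dnmt3a* KO moved from -0.12 to -0.23 with the pseudocount of 0.1 and to -0.24 at 5 FPKM. At 5 FPKM 10 list medians changed sign, among them those of cartilage and bone genes (-0.31 to 0.05) and neural crest, glial and neural markers (-0.10 to 0.05) in the pair labelled *Dnmt3a* KO, of skeletal muscle (0.07 to -0.17) and LXR genes (0.03 to -0.11) in the same pair and of macrophage and blood markers (-0.09 to 0.08) in WT. The Wnt median in the pair labelled *Dnmt3a* KO moved from -0.05 to -0.28. With centred ratios 1 changed sign (heat shock genes, -0.03 to 0.01, pair labelled *Dnmt3a* KO). The cholesterol, fatty acid, G2/M, S-phase and ATF4 medians kept their signs.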
